A study of Rattus norvegicus with 6 samples.

Results

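The 10 genes Adh1, Adh4, Aldh1a1, Aldh1b1, Aldh1l1, Aldh2, Aldh3a2, Aldh7a1, Aldh8a1 and Aldh9a1 encode alcohol and aldehyde dehydrogenases of the liver. They were taken by their symbols from the 32930 gene rows of the expression table, each symbol having 1 row, and all 10 passed the expression filter that left 18455 genes to test. The HFD group was 3 libraries from livers of animals on a high-fat diet, which the design text describes as given CMC-Na as vehicle, and the HTG group was 3 libraries from animals on the same diet given HTG (Huazhuo Tiaozhi granule, a herbal formula). Diet and intervention together are given as 12 weeks in the design text, while the rat methods of the paper start dosing only after a lead-in on the diet alone, so the length of dosing behind these libraries is not certain. All livers are labelled nonalcoholic fatty liver, and no library came from animals on a normal diet. The labels write the treatment as HCG in 1 field and as HTG in the titles, and the titles were followed. The labels name rats, the paper's RNA sequencing methods name C57BL/6 J mice, and the identifiers in the gene rows are those of mouse Ensembl, which were followed here. Neither source gives the age of the animals or says whether a library was made from 1 animal or from several. If libraries of a group are not from separate animals, the p-values measure only the spread between these libraries.

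Alcohol dehydrogenases oxidise alcohols to aldehydes, and aldehyde dehydrogenases oxidise aldehydes to acids, in most cases with NAD+ as the electron acceptor. The best known chain in the hepatocyte runs from ethanol to acetaldehyde through Adh1 and on to acetate through the mitochondrial enzyme Aldh2. The same families handle retinol and retinal, fatty aldehydes made from lipids, and the aldehydes that arise in the breakdown of lysine, tryptophan, choline and folate-bound formyl groups. In the annotation columns of the table, 7 of the 10 genes carried the KEGG entry Fatty acid degradation and the same 7 the entry Glycolysis / Gluconeogenesis, and 3 (Adh1, Adh4 and Aldh1a1) carried Retinol metabolism.

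All 10 genes were fitted lower in HTG than in HFD livers, where 48.4% of all genes tested did. Their log2 fold changes lay between -1.12 for Aldh3a2 and -0.31 for Adh4, with a median of -0.60 against 0.03 over all genes. No gene of the 10 passed an adjusted p under 0.05 (from 0.107 to 0.438 in edgeR, adjusted over all genes tested by the Benjamini-Hochberg method), a threshold that 0.0108% of all genes passed. Under an adjusted p of 0.1, 0 of the 10 were lower, against 5.43% of all genes. At an unadjusted p under 0.05, 5 of the 10 were lower and 0 were higher, against 12.4% and 12.3% of all genes. These 5 were Aldh1a1, Aldh1b1, Aldh3a2, Aldh7a1 and Aldh9a1. The count was 1 without HTG library 2 (8.09% of all genes lower in that fit), 2 without HTG library 3 (8.70%), 3 without HFD library 3 (10.2%) and 7 without HTG library 1 (14.8%). With DESeq2, 4 of the 10 (Aldh1a1, Aldh1b1, Aldh3a2 and Aldh7a1) were lower at an adjusted p under 0.05, where 6.06% of all genes were lower, and 0 were higher, against 4.83%. In 7 of the 10 genes every HTG library lay below every HFD library in CPM (counts scaled to a common library size, after normalisation), against 15.5% of all genes. For 1 gene, the smallest p that an exact permutation test (two-sided) of 3 against 3 libraries can give is 0.1.

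The libraries were deep enough that counting error was small for these genes. HFD libraries 1, 2 and 3 held 65353298, 70910444 and 69907057 estimated counts in total. HTG libraries 1, 2 and 3 held 78549295, 90563477 and 50648778. Low counts came in steps of about 4, so 1 sequenced fragment was taken as 4 counts. The lowest count of any of the 10 genes was 2301 (Aldh1b1 in HTG library 3). Of all counts, the 10 genes together took 0.843%, 0.738% and 0.979% in the 3 HFD libraries. Their share was 0.671%, 0.473% and 0.482% in the 3 HTG libraries. Every HTG share was thus below every HFD share. Over all genes, HTG library 1 correlated with HFD library 1 (r = 0.982 across genes, which are not independent replicates) no less closely than with the other two HTG libraries (0.979 and 0.978). Among the 10 genes, HTG library 1 had the highest CPM of its group in 8, and HTG library 2 the lowest in 8. In bulk liver, fewer cells of a type and less RNA per cell cannot be told apart.

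On the FPKM scale, which divides by transcript length and allows levels to be set side by side between genes, Adh1 was the most abundant of the 10 in both groups. Its level was 1057 ± 211 FPKM in the HFD group and 723 ± 137 in the HTG group (SD, n = 3 each). Aldh2 came next, at 379 ± 22.6 and 269 ± 48.0 FPKM, followed by Aldh1l1 at 286 ± 131 and 152 ± 38.7 and Aldh1a1 at 262 ± 16.9 and 117 ± 69.8 (SD, n = 3 per group). These 4 genes made up between 82.6% and 86.3% of the summed FPKM of the 10 genes in each library. The other 6 had mean levels between 31.1 FPKM (Aldh1b1) and 82.7 FPKM (Aldh7a1) in the HFD group. The order of the 10 means was the same in both groups. In the HFD group the FPKM values of neighbours in that order overlapped everywhere except between Adh1 and Aldh2 and between Aldh1a1 and Aldh7a1, so most of the ranks below Adh1 could not be separated beyond the spread between libraries. In the HTG group Aldh2 was also separate from Aldh1l1.

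**Figure D1:**
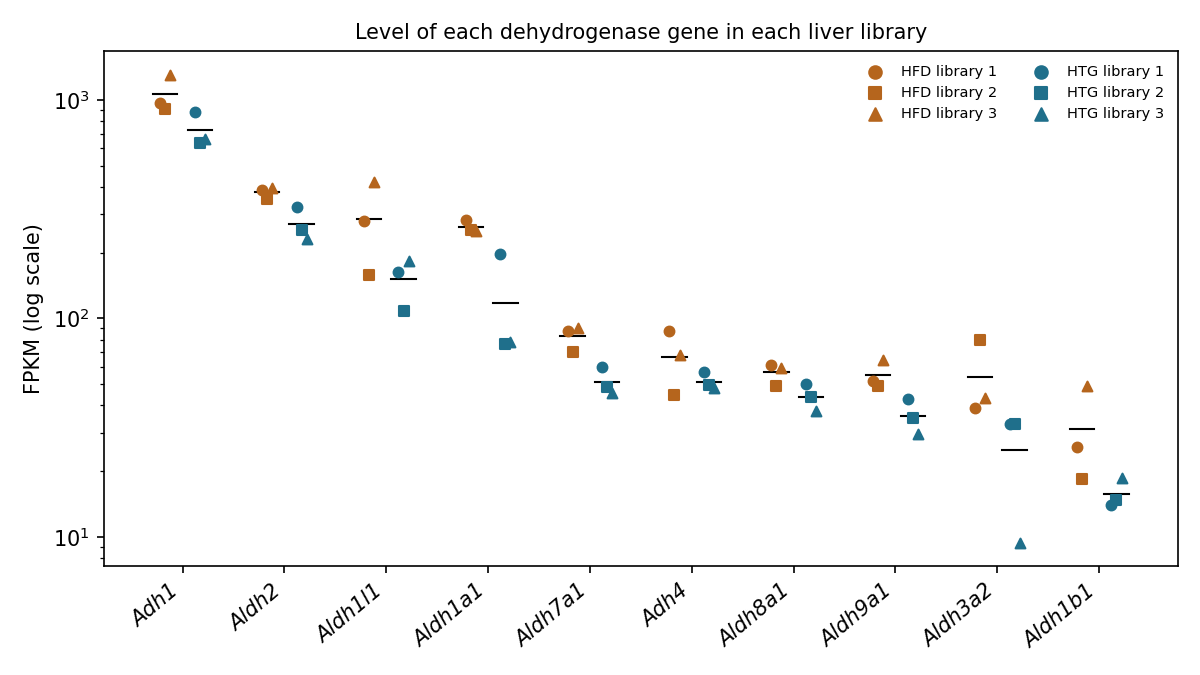
FPKM (log scale) of the 10 genes in each of the 6 libraries, with the colour giving the group, the symbol giving the library number and the black line giving the group mean. The genes are ordered by their HFD mean, from Adh1 (1057 FPKM) to Aldh1b1 (31.1 FPKM), and each HTG mean lies below the HFD mean of the same gene.

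Values of single libraries are given below in the order 1, 2 and 3. The ethanol route had small differences in its most abundant genes. Adh1 (ENSMUSG00000074207, chromosome 3, 137966752 to 137996459), the class I alcohol dehydrogenase that oxidises ethanol and retinol, had 2158, 2233 and 2918 CPM in the HFD libraries and 2107, 1393 and 1690 CPM in the HTG libraries. The groups did not overlap, but HTG library 1 lay next to HFD library 1, and the log2 fold change was -0.49 (standard error, SE, 0.25, edgeR adjusted p = 0.272). Aldh2 (ENSMUSG00000029455, chromosome 5, 121704090 to 121731887), the mitochondrial enzyme that clears acetaldehyde, had 1984, 2002 and 2038 CPM in the HFD libraries and 1774, 1282 and 1361 CPM in the HTG libraries. The HFD libraries were close to each other (SD 27.3 CPM) and all 3 HTG libraries lay below them, with HTG library 1 the nearest. The log2 fold change was -0.45 (SE 0.22, edgeR adjusted p = 0.261). Adh4 (ENSMUSG00000037797, chromosome 3, 138121227 to 138129789), a class II enzyme that also acts on ethanol and retinol, had 127, 71.5 and 99.3 CPM in the HFD libraries and 88.1, 70.9 and 80.2 CPM in the HTG libraries. Its groups overlapped, since HFD library 2 lay within the HTG range, and its log2 fold change of -0.31 (SE 0.23) was -0.10 without HFD library 1 and -0.51 without HFD library 2. Aldh1b1 (ENSMUSG00000035561, chromosome 4, 45799022 to 45804604), a second mitochondrial enzyme for acetaldehyde, had 59.4, 46.8 and 114 CPM in the HFD libraries and 34.7, 33.6 and 49.1 CPM in the HTG libraries. HFD library 2 lay below HTG library 3, so the groups overlapped, and HFD library 3 was far above the other libraries. The log2 fold change of -0.90 (SE 0.33, edgeR adjusted p = 0.144) was -0.45 without HFD library 3.

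Aldh1a1 (ENSMUSG00000053279, chromosome 19, 20470079 to 20620829), the cytosolic enzyme that makes retinoic acid from retinal and also accepts acetaldehyde, had 1385, 1379 and 1252 CPM in HFD libraries 1, 2 and 3. In HTG libraries 1, 2 and 3 it had 1048, 374 and 441 CPM. The HTG libraries all lay below the HFD libraries but were split, with HTG library 1 closer to the HFD group than to the other two. The log2 fold change was -1.11 (SE 0.39, edgeR adjusted p = 0.129). Without HTG library 1 it was -1.76 with an adjusted p of 0.0414, and without HTG library 2 it was -0.85 with an adjusted p of 0.318 (both from edgeR). The relative SD of Aldh1a1 was 5.63% in the HFD group and 59.8% in the HTG group, the widest HTG spread of the 10 genes. Aldh1a7, a close paralog of Aldh1a1 that can share reads with it, had 239, 121 and 298 CPM in the HFD libraries and 161, 87.5 and 204 CPM in the HTG libraries, with overlapping groups. It was highest in HFD library 3 and HTG library 3, whereas Aldh1a1 was highest in library 1 of each group.

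Aldh3a2 (ENSMUSG00000010025, chromosome 11, 61114243 to 61158290), the fatty aldehyde dehydrogenase that turns long-chain aldehydes into fatty acids, had 219, 496 and 245 CPM in HFD libraries 1, 2 and 3 and 198, 183 and 60.8 CPM in HTG libraries 1, 2 and 3. The groups did not overlap, but HFD library 2 was high and HTG library 3 was low, and both stretched the difference. The log2 fold change was -1.12 (SE 0.48, edgeR adjusted p = 0.192), -0.66 without HFD library 2 and -0.73 without HTG library 3. Cyp4a14 and Cyp4a10, omega-hydroxylases of fatty acids that were picked out after their values were seen, were also highest in HFD library 2. Cyp4a14 had 8.25, 1395 and 11.4 CPM in the HFD libraries and 398, 135 and 3.93 CPM in the HTG libraries. Cyp4a10 had 45.0, 602 and 39.9 CPM in the HFD libraries and 335, 135 and 15.3 CPM in the HTG libraries. For Aldh3a2 and these 2 genes HFD library 2 was the highest of the 6 libraries and HTG library 3 the lowest. Other Cyp4 genes of the same list did not share this order: Cyp4a12a had 36.0, 103 and 24.4 CPM in the HFD libraries and 49.8, 57.6 and 46.2 CPM in the HTG libraries, and none of Cyp4f13, Cyp4f14 and Cyp4f15 was highest in HFD library 2. Among genes picked out after their values were seen, Agmo and Phyh of the same list and the family gene Aldh6a1 did share it. So did Retsat, Etnppl, Tdo2, Hsd17b13, Rdh7, Dhrs4 and Rbp4 of other lists. Agmo had 35.7, 62.3 and 43.8 CPM in the HFD libraries and 29.2, 13.1 and 10.2 CPM in the HTG libraries. Retsat had 95.4, 673 and 97.9 CPM in the HFD libraries and 254, 114 and 37.1 CPM in the HTG libraries. The share of all genes with this order was not counted.

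The remaining 4 genes belong to amino acid, carnitine and folate metabolism. Aldh1l1 (ENSMUSG00000030088, chromosome 6, 90463409 to 90577185), which removes the formyl group of 10-formyltetrahydrofolate, had 1261, 790 and 1906 CPM in the HFD libraries and 793, 485 and 950 CPM in the HTG libraries. Its groups overlapped, since HFD library 2 lay below HTG libraries 1 and 3. The log2 fold change was -0.83 (SE 0.37, edgeR adjusted p = 0.216) and -0.47 without HFD library 3. Aldh7a1 (ENSMUSG00000053644), which oxidises the semialdehyde of lysine breakdown and also betaine aldehyde, had the smallest p of the 10 genes. It had 452, 401 and 473 CPM in the HFD libraries and 332, 250 and 273 CPM in the HTG libraries, so the groups did not overlap, and their means (442 and 285 CPM) differed by more than the SD of either (37.2 and 42.1 CPM, n = 3 each). The log2 fold change was -0.63 (SE 0.20, unadjusted p = 0.013, edgeR adjusted p = 0.107), and the unadjusted p stayed under 0.05 in 5 of the 6 fits that left out 1 library, the exception being HTG library 3. Aldh9a1 (ENSMUSG00000026687, chromosome 1, 167177560 to 167196101), which makes the carnitine precursor butyrobetaine, had 174, 185 and 220 CPM in the HFD libraries and 155, 118 and 115 CPM in the HTG libraries. These groups also did not overlap, and the log2 fold change was -0.58 (SE 0.20, edgeR adjusted p = 0.131). Aldh8a1 (ENSMUSG00000037542, chromosome 10, 21253190 to 21272484), which acts on a semialdehyde of tryptophan breakdown, had 269, 239 and 262 CPM in the HFD libraries and 236, 190 and 191 CPM in the HTG libraries. The gap between HFD library 2 and HTG library 1 was narrow, and in FPKM these values crossed (49.3 against 50.1). Its log2 fold change was -0.32 (SE 0.19).

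**Figure D2:**
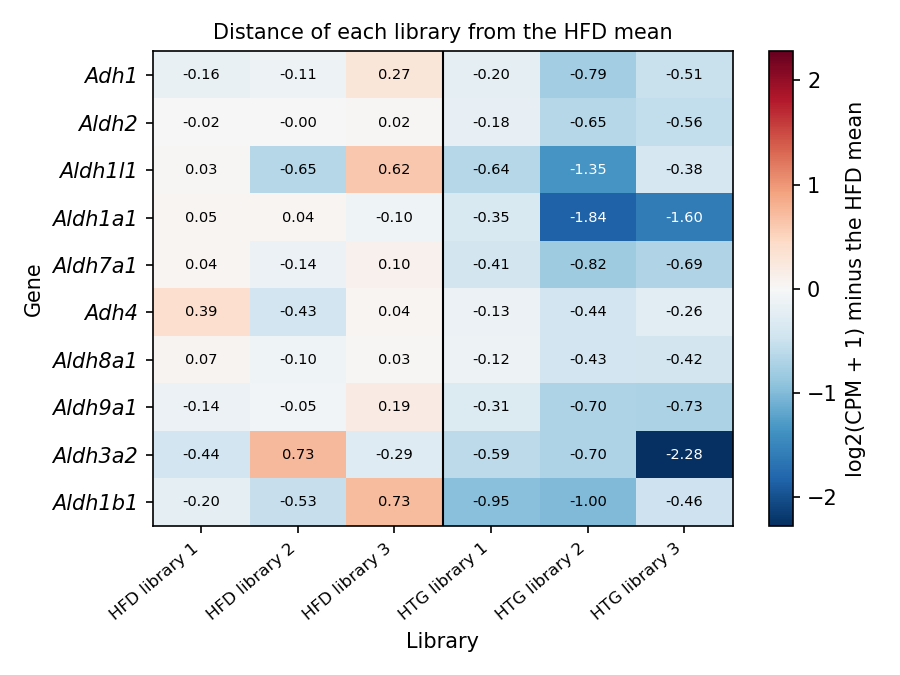
Difference of each library from the HFD mean on the log2(CPM + 1) scale, with genes in rows, libraries in columns, blue below and red above the HFD mean. All 10 genes are below that mean in each HTG library, with median differences of -0.33, -0.75 and -0.54 in HTG libraries 1, 2 and 3, and the lowest cell is Aldh3a2 in HTG library 3 (-2.28).

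The libraries of the HFD group also differed among themselves. HFD library 3 had the highest CPM of its group in 6 of the 10 genes, and HFD library 2 the lowest in 5. Aldh2 and Aldh1a1 varied least within that group, with relative SDs of 1.36% and 5.63%. Aldh1b1, Aldh3a2 and Aldh1l1 varied most, with 48.5%, 47.8% and 42.5%. The plot of fits with 1 library left out shows where single HFD libraries counted most: HFD library 3 for Aldh1b1 and Aldh1l1, and HFD library 2 for Aldh3a2. With any 1 HFD library left out, only the fitted difference of Aldh1b1 (without HFD library 3) moved by more than its standard error.

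**Figure D3:**
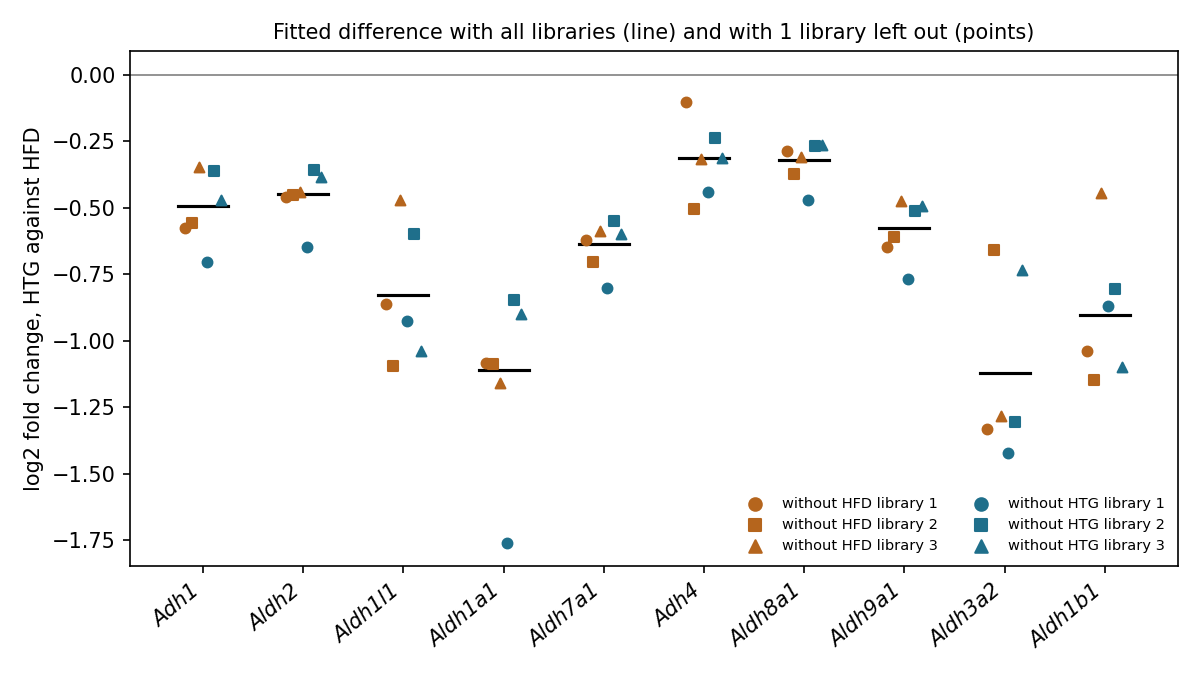
Fitted log2 fold change (HTG against HFD) of each gene with all 6 libraries (black line) and with 1 library left out (points, named by the library removed). Each point lies below 0, from -1.76 (Aldh1a1 without HTG library 1) to -0.10 (Adh4 without HFD library 1).

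Among the remaining genes of both families, 18 were listed, 15 were tested, and 0 passed an adjusted p under 0.05. Of these 15, 12 had a lower and 3 a higher fitted value, with 4 lower and 0 higher at an unadjusted p under 0.05. Of all genes, 48.4% were fitted lower, and 12.4% were lower and 12.3% higher at that p. Aldh4a1, which oxidises an intermediate of proline breakdown, had 327 ± 93.9 CPM in the HFD group and 190 ± 20.6 in the HTG group (SD, n = 3 each), a log2 fold change of -0.78 (SE 0.24, edgeR adjusted p = 0.104). Aldh18a1, which works in the opposite direction and makes proline precursors from glutamate, had 7.22 ± 1.83 and 4.45 ± 0.931 CPM (SD, n = 3 per group) and a log2 fold change of -0.70 (SE 0.27, edgeR adjusted p = 0.16). A processed pseudogene inside its span carried counts of its own.

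The 2 other low values came from rare transcripts. Aldh1l2, the mitochondrial counterpart of Aldh1l1, was counted 22, 297 and 243 times in the HFD libraries against 12, 0 and 5 times in the HTG libraries. All 3 HTG libraries were thus at or under 12 counts, the 3 fragments that an empty gene allows in a library, and Aldh1l2 was at least 15.3-fold lower in the HTG group, a bound that leans on HFD libraries 2 and 3. The edge of Aldh1l2 overlaps Nopchap1 on the other strand, which carried more counts. Aldh1a2, which makes retinoic acid, was counted 22, 16 and 18 times in the HFD libraries and was at 0 in all HTG libraries, which makes it at least 1.53-fold lower against the same limit. These limits cover counting error only.

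Alcohol dehydrogenases did not all lie on the same side. Adh5, the class III enzyme that handles formaldehyde bound to glutathione, had 389 ± 23.6 CPM in the HFD group and 301 ± 61.9 in the HTG group (SD, n = 3 each), with a log2 fold change of -0.37 (SE 0.22). Adh7, a class IV enzyme that oxidises retinol, had 22.7 ± 4.29 and 30.5 ± 4.31 CPM (SD, n = 3 per group), with a log2 fold change of 0.43 (SE 0.20, edgeR adjusted p = 0.222) and overlapping groups. The lncRNA row 0610031O16Rik covers the span of Adh7 on the other strand and carried more counts than Adh7 itself. Adhfe1, a transhydrogenase of hydroxybutyrate, had a log2 fold change of -0.24 (SE 0.17). Adh6b had at most 34 counts in a library. Adh6a (at most 6 counts), Aldh3a1 (at most 13) and Aldh3b2 (at most 9) did not pass the expression filter. Of the 7 rows of the Adh cluster on chromosome 3 (137923521 to 138161260, all on the plus strand), Adh1, Adh4 and Adh5 had lower fitted values while Adh7, Adh6b and Adh6-ps1 between and beside them had higher ones.

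**Figure D4:**
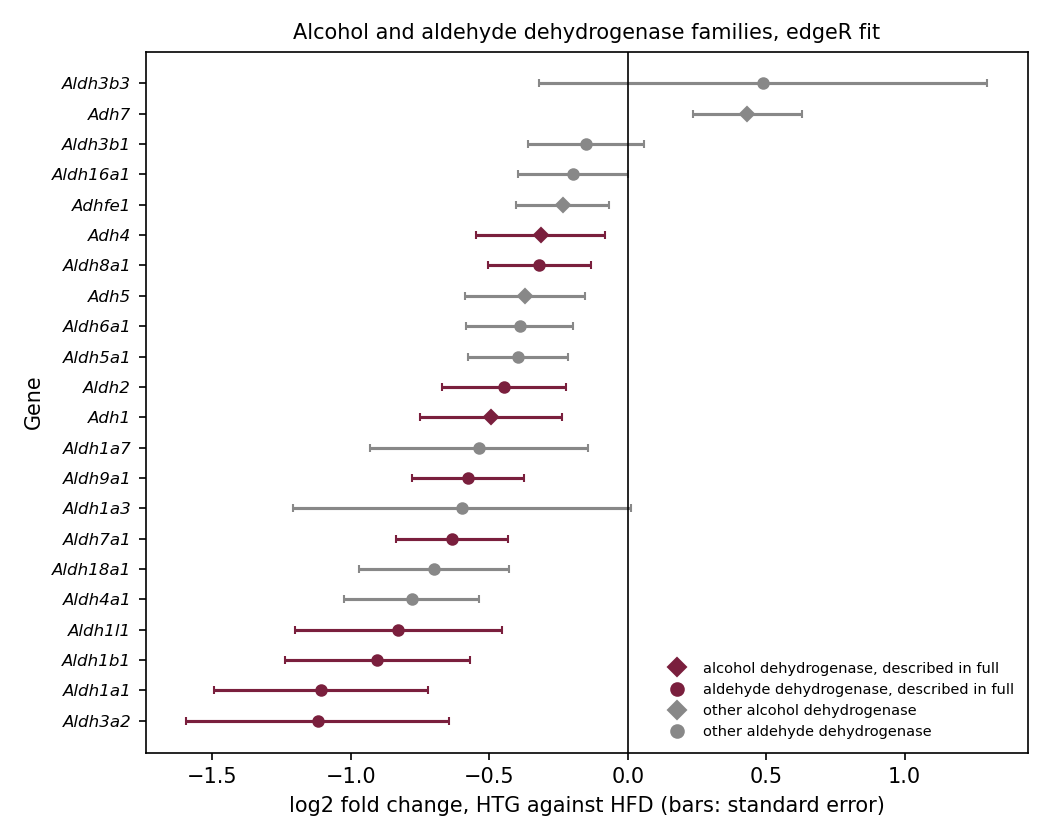
Log2 fold change (HTG against HFD, edgeR fit) with its standard error for 22 tested genes of both families, diamonds for alcohol and circles for aldehyde dehydrogenases, red for the 10 genes described in full. Adh7 (0.43) and Aldh3b3 (0.49) lie above 0, and Aldh1a2, Aldh1l2 and Adh6b, each with a group no higher than an empty gene could be, are not drawn.

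Genes that feed or drain the same routes, and marker genes, were read from lists, whose counts stand against 12.4% of all genes lower and 12.3% higher at an unadjusted p under 0.05. Among 6 genes of other ethanol routes and acetate use, 2 were lower and 0 higher at an unadjusted p under 0.05, with a median log2 fold change of -0.55. Akr1a1, an aldehyde reductase, had a log2 fold change of -0.81 (SE 0.27) and Cat, the peroxisomal catalase, -0.53 (SE 0.22). The difference of Acss2, which activates acetate (log2 fold change -1.51, SE 0.81), leaned on HFD library 3: it had 102, 53.7 and 522 CPM in the HFD libraries and 46.5, 48.6 and 142 CPM in the HTG libraries. Of 16 genes of retinoid handling, 2 were lower and 0 higher at that threshold (median -0.42), a share near that of all genes. Rdh16, which oxidises retinol, had 95.0 ± 28.9 and 45.1 ± 9.93 CPM (SD, n = 3 per group) and thus a log2 fold change of -1.08 (SE 0.27, edgeR adjusted p = 0.0663). Rdh10, which starts retinoic acid synthesis, had a log2 fold change of -0.39 (SE 0.16). Rarb, a receptor gene induced by retinoic acid, had 1.25 ± 1.44 and 0.442 ± 0.235 CPM (SD, n = 3 per group) in overlapping groups.

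Folate enzymes lay on both sides of 0 around Aldh1l1. Of 20 genes, 6 were lower and 3 higher at an unadjusted p under 0.05, with a median log2 fold change of -0.35. Mthfd1l, which yields formate in mitochondria, had 5.45 ± 1.85 CPM in the HFD group and 1.79 ± 0.426 in the HTG group (SD, n = 3 each), a log2 fold change of -1.61 (SE 0.33, edgeR adjusted p = 0.0585). The purine enzyme Atic, which consumes 10-formyltetrahydrofolate, had a log2 fold change of -0.96 (SE 0.25). Sardh, Dmgdh and Gldc, named after their values were seen, were also among the lower genes. Sardh, the most abundant gene of the list, had 845 ± 204 CPM in the HFD group and 462 ± 121 in the HTG group (SD, n = 3 each). Its log2 fold change was -0.87 (SE 0.27), that of Dmgdh -0.85 (SE 0.26) and that of Gldc -1.02 (SE 0.39). The 3 higher genes, named here after their values were seen, were Ftcd, which channels formimino groups from histidine breakdown into folate (316 ± 72.4 and 559 ± 118 CPM, SD, n = 3 per group, log2 fold change 0.82, SE 0.26), Mthfd2l (1.01, SE 0.33, at only 1.21 and 2.44 CPM in the HFD and HTG groups) and Mthfs (0.43, SE 0.15).

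Beside Aldh7a1 and Aldh9a1, 10 genes of lysine, choline and carnitine routes had a median log2 fold change of -0.29, with 3 lower and 1 higher at an unadjusted p under 0.05. Bbox1, which completes carnitine synthesis from the product of Aldh9a1, had 124 ± 8.14 and 60.0 ± 15.0 CPM (SD, n = 3 per group) and thus a log2 fold change of -1.05 (SE 0.21, edgeR adjusted p = 0.0582). Aass, which opens lysine breakdown upstream of Aldh7a1, had a log2 fold change of -0.80 (SE 0.30), whereas Dhtkd1, further down that route, had 0.70 (SE 0.25). On the kynurenine route of tryptophan, 2 of 10 genes were lower and 1 higher at that threshold (median -0.20). Tdo2, its first enzyme, had 1180, 1723 and 741 CPM in the HFD libraries and 533, 307 and 257 CPM in the HTG libraries, a log2 fold change of -1.73 (SE 0.39, edgeR adjusted p = 0.0612). Kynu had -0.58 (SE 0.23) and Kyat1, which takes kynurenine to a side product, 1.31 (SE 0.28, edgeR adjusted p = 0.0605).

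Among 11 genes of fatty aldehyde sources, which supply Aldh3a2, 2 were lower and 1 higher at an unadjusted p under 0.05 (median log2 fold change -0.21). Agmo, which cleaves ether lipids to fatty aldehydes, had a log2 fold change of -1.43 (SE 0.40), Sgpl1, the sphingosine phosphate lyase, -0.36 (SE 0.15), and the cytochrome P450 gene Cyp4f13 0.56 (SE 0.19).

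The liver label was checked against marker genes, and other quantities that moved with the groups are given here; their part in the differences of the 10 genes was not tested. Alb, the most abundant hepatocyte marker, had a log2 fold change of -0.28 (SE 0.27), and all 9 hepatocyte markers that were matched were tested (1 lower, Cps1, and 1 higher, Apoa2, at an unadjusted p under 0.05, median log2 fold change -0.28). Markers of hepatocytes around the central vein were lower in 6 of 10 genes and higher in 0 at that threshold (median -0.99). Their summed level was 14943, 16737 and 9667 CPM in the HFD libraries and 11470, 6779 and 8307 CPM in the HTG libraries, with Cyp2e1 as the most abundant gene, so the sums overlapped. Without Cyp2e1 they were 6683, 6829 and 5586 CPM against 4335, 2967 and 4253 CPM and did not overlap. Gulo (-1.15, SE 0.24), Cyp1a2 (-1.13, SE 0.26) and Slc1a2 (-0.98, SE 0.27) had the smallest p of these. Markers of hepatocytes around the portal vein were lower in 4 of 10 genes and higher in 1 (median -0.48), with summed levels of 8030, 8234 and 6714 CPM in the HFD libraries and 4671, 3834 and 5192 CPM in the HTG libraries, which did not overlap, and Pck1 as the most abundant gene.

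Markers of other cells went both ways. Kupffer cell markers were lower in 2 of 10 genes and higher in 0 at an unadjusted p under 0.05 (median log2 fold change -0.36), with summed levels of 1461, 805 and 1332 CPM in the HFD libraries and 1114, 956 and 604 CPM in the HTG libraries, and Cd5l was their most abundant gene. Sinusoidal endothelial markers were higher in 1 of 10 (Stab1) and lower in 0 (median 0.30), summing to 242, 105 and 180 CPM and to 256, 287 and 190 CPM. Stellate cell markers (1 lower and 1 higher of 10, median -0.29, most abundant gene Dcn) summed to 332, 259 and 302 CPM and to 322, 262 and 227 CPM. Biliary markers (1 lower and 1 higher of 8, median -0.01, mostly Spp1) summed to 87.7, 100.1 and 108 CPM and to 71.4, 60.9 and 133 CPM. Leukocyte markers (0 either way of 9 tested, median 0.07, most abundant gene S100a9) summed to 66.3, 72.9 and 64.4 CPM and to 51.5, 68.0 and 90.7 CPM. Red cell markers (1 lower of 6, median -0.31, most abundant gene Hba-a1) summed to 258, 235 and 429 CPM and to 280, 485 and 259 CPM. The marker sums of these 6 cell types overlapped between the groups, also without the most abundant gene of each except for the biliary markers, whose remainder was 10.8, 11.8 and 11.2 CPM in the HFD libraries and 11.8, 12.4 and 12.3 CPM in the HTG libraries, and no marker with a row was at 0 in all libraries. The share of counts on the mitochondrial chromosome was 6.45%, 4.97% and 5.24% for the 3 HFD libraries. For the 3 HTG libraries it was 9.31%, 15.2% and 13.2%. With these rows left out before scaling, the median log2 fold change of the 10 genes was -0.61.

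**Figure D5:**
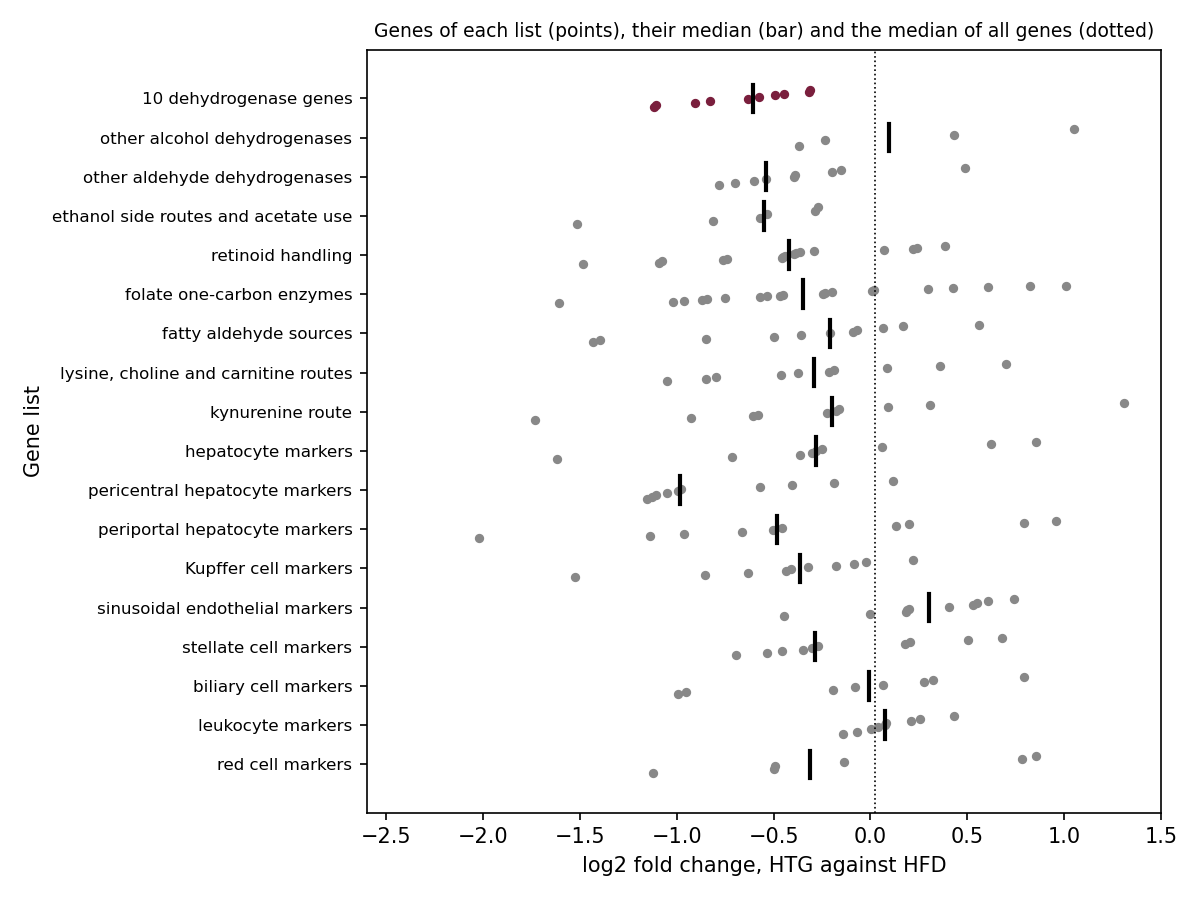
Log2 fold change (HTG against HFD) of the tested genes of each list (points), the median of each list (black bar) and the median of all genes tested (dotted line, 0.03). The 10 dehydrogenase genes (red, median -0.60) all lie below that line, as do most markers of hepatocytes around the central vein (median -0.99), and 2 points below -2.5 (Aldh1a2 and Aldh1l2) are outside the axis.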

How the data were processed

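Liver RNA was measured in 3 HFD and 3 HTG poly(A) libraries, made strand-marked and paired-end per the paper's methods. The authors deposited estimated counts per gene, as whole numbers without scaling between libraries, and FPKM values, which they scaled by transcript length and library fragments. The submitters' processing notes name HISAT2, StringTie, SAMtools and the rat build mRatBN7.2, while the rows are mouse Ensembl genes. Coordinates are therefore given as the table lists them, without a build, filters and strand use in counting are not given in the sources used here, and the reference tables, which are of rat, were not used. Opposite-strand rows overlapping Adh1, Aldh1a1, Aldh1l1 and Aldh2 each had at most 0.688% of the gene's mean count, and Phax had 5.93% of that of Aldh7a1.

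Counts were tested with edgeR 4.0.16 under R 4.3.3 by its quasi-likelihood test (glmQLFit, glmQLFTest) after filterByExpr and TMM scaling. The model held only the group, and p-values were adjusted by the Benjamini-Hochberg method. Standard errors (SE) were the log2 fold change divided by the square root of F. The fit was tested on simulated counts. Alternatives were DESeq2 1.42.0, other filters and scalings, counts divided by 4, the replicate number as a block, limma 3.58.1 on log2(FPKM + 0.1) or log2(FPKM + 1), and each library left out. The 10 genes and the 17 other lists were chosen with earlier results of these data known. Besides the 10 genes, the text names from each list at most 3 genes with the smallest unadjusted p and a mean of at least 50 counts, family genes at 0 or not tested, the most abundant marker of each cell type, and the 5 genes most alike in profile. Outside this rule, Aldh1a7, Aldh6a1, Adh6b, Aldh3b3, Adh6-ps1, Cyp4a14, Cyp4a10, Cyp4a12a, Cyp4f14, Cyp4f15, Phyh, Retsat and Etnppl were named after their values were seen. So were Rdh7, Dhrs4, Rbp4, Sardh, Dmgdh, Gldc, Ftcd, Mthfd2l and Mthfs, and rows overlapping a named gene. Tf and Tmlhe were not analysed here. The values of 1 gene of the folate list are not reported here.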

Additional observations from a re-analysis of the deposited data

How the results depend on the processing

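The 10 genes kept a negative log2 fold change under all 17 alternatives, and their median stayed between -0.65 and -0.57 over the 11 that kept all libraries and between -0.78 and -0.46 over the 6 that left out 1 library. The number of genes past an adjusted p under 0.05 was 2 in the edgeR fit. It was 2104 in DESeq2, 162 with no filter, 684 with at least 10 counts in every library, 14 without mitochondrial rows, 822 with counts divided by 4, 878 and 884 in limma on log2(FPKM + 0.1) and log2(FPKM + 1), 0 in limma without a filter, and between 0 and 653 with 1 library left out. Of the 10 genes, 0 passed that threshold, against 4 in DESeq2, and between 0 and 1 (Aldh1a1, without HTG library 1) with 1 library left out. The number lower at an unadjusted p under 0.05 was 5, against 8 in DESeq2 and between 1 and 7 with 1 library left out. Of all genes, 12.4% were lower at that p in the edgeR fit, 8.82% in DESeq2 (over 29720 genes, as DESeq2 gave a p before its own filter), 10.5% with the replicate block and between 8.09% and 14.8% with 1 library left out. The cause of these differences between tools and filters was not tested. With the replicate number as a block, 0 genes passed the adjusted threshold and 6 of the 10 genes were lower at the unadjusted one, but the numbers did not pair the libraries: deviations of same-numbered libraries correlated with -0.15, -0.12 and 0.21, and only library 3 of each group correlated best with its own number. No scaling moved the median of all genes by over 0.1 on the log2 scale. Depth did not limit the 10 genes, but Aldh1a2, Adh6a, Adh6b, Aldh3a1 and Aldh3b2 were near the limit of an empty gene. Aldh1l2 was near it in the HTG libraries and in HFD library 1 (22 counts), but not in HFD libraries 2 and 3.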

Other observations

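Adh6-ps1, a pseudogene row of the Adh cluster (ENSMUSG00000090306, chromosome 3, 138079882 to 138100763) picked out after its values were seen, went the other way from its abundant neighbours. It had 6.77, 5.83 and 12.4 CPM in HFD libraries 1, 2 and 3 and 17.9, 17.1 and 18.1 CPM in HTG libraries 1, 2 and 3, so the groups did not overlap. The fitted difference was 1.08 on the log2 scale (SE 0.28, edgeR adjusted p = 0.0752). The row lies between Adh6b and Adh4 and can share reads with related Adh genes.

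The 5 genes whose profile over the 6 libraries was most like the mean profile of the 10 dehydrogenase genes were Prkacb, Dnajb12, Arpc1b, Gm11914 and Serpind1. Serpind1, which encodes the thrombin inhibitor heparin cofactor, had 451, 384 and 516 CPM in the HFD libraries and 311, 229 and 255 CPM in the HTG libraries. Their correlations lay between 0.993 and 0.996 over the 6 libraries, and 766 of the 14360 genes compared had one over 0.9.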
